A study of Mus musculus and synthetic construct with 9 samples.

Results

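Thapsigargin (Tg) changed the effect of a SNP on reporter transcription at 50 of the 6180 SNPs that could be compared in MIN6 cells, or 0.809%. At 26 of these SNPs the allelic effect was smaller in Tg than in the DMSO solvent control, at 10 it was larger, and at 14 the mean effect had the opposite sign. Over all 6180 SNPs, most with effects near 0, these classes held 1810, 2220 and 2150. The effect passed a test against 0 in DMSO at 1012 SNPs, and at 619 of these it was smaller in Tg. A smaller effect was therefore not particular to the 50. Falls were more frequent than rises among the alleles of the 50 SNPs, 37 against 15, as they were among the alleles of all pairs, 537 against 266. At rs9810370, for example, the reference allele fell in Tg but stayed active. The weaker alternate allele did not pass the test of change and was active in DMSO only. A rise was seen at rs11075992 at the FTO locus, where neither allele was active in DMSO and only the C allele was active in Tg.

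The members are pairs of oligos that carry the reference and the alternate allele of a SNP. Of 6814 pairs in the count tables, 186 carry a neighbouring SNP on its other allele and were set aside, which left 6628. Both alleles had a mean plasmid count of 100 or more at 6180 of them, and 448 pairs under that minimum were not tested. The pair nearest to the minimum among the members, rs496238, had a mean of 100 for its rarer allele, and the nearest pair left out, rs7649799, had 99.4. The value of a SNP in a library, called here its allelic effect, is the log2 RNA/plasmid ratio of the alternate allele minus that of the reference allele. A value of 1 therefore means that the alternate allele gave 2 times the RNA per plasmid of the reference allele. The plasmid term is the same for DMSO and Tg and cancels when they are compared, as does any scaling of a library.

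In a massively parallel reporter assay (MPRA), many designed sequences are placed before a minimal promoter and a GFP gene that carries barcodes, and the barcodes are counted in mRNA and in plasmid. Tg blocks the SERCA pump that moves calcium into the endoplasmic reticulum (ER). Unfolded proteins then accumulate in the ER, and the unfolded protein response acts through the sensors PERK, IRE1 and ATF6. PERK signalling raises the transcription factors ATF4 and CHOP, and pancreatic β cells, which make large amounts of insulin, are known to be sensitive to it.

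MIN6 cells derive from a mouse insulinoma and retain much of the character of β cells, and the sequences it received here are human, 200 bases long and outside of their chromosome. Every group compared here received the second plasmid batch, which the study grew from the first. Medium with 250 nM Tg in 0.025% DMSO, or with 0.025% DMSO alone, was given 6 h after transfection, and cells were harvested at 30 h. Each condition had 5 transfections made on separate days. RNA libraries held 28896082 to 33325429 counts in DMSO and 29968043 to 44899256 in Tg, and the 5 plasmid libraries held 23009482 to 36129587. The counts are of reporter barcodes and hold no transcript of the cell, so the line was not checked against marker genes. A change in the number of transfected cells and a change in RNA per cell cannot be told apart in such totals.

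Short stretches around a SNP were used for 4 of the SNPs whose effect differed. Stretches on chromosome 8 were left out throughout. The 4 are given for both alleles on the plus strand of hg19 with the SNP in capitals. They are shown because the single base in capitals is the only difference within each pair of oligos. The stretch of rs11075992 lies at chr16:53820055-53820078, that of rs10875179 at chr1:99200188-99200212, that of rs10842991 at chr12:27962089-27962117, and that of rs1076685 at chr1:172993923-172993946.

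rs11075992 reference: tcagaggcttgTgtgagaaagttg
rs11075992 alternate: tcagaggcttgCgtgagaaagttg
rs10875179 reference: catgattactGctgttactgttact
rs10875179 alternate: catgattactActgttactgttact
rs10842991 reference: tattattatcttcaCggactatttcacag
rs10842991 alternate: tattattatcttcaTggactatttcacag
rs1076685 reference: cacacagagAtaatgttttaccag
rs1076685 alternate: cacacagagTtaatgttttaccag

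At rs17748864, by contrast, a large allelic effect was present in both conditions. Its probes are printed for comparison, with the SNP at position 179649511 of chromosome 3.

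rs17748864 reference: tacagcacagCccaattaact
rs17748864 alternate: tacagcacagTccaattaact

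Allelic effects in Tg were set against those in DMSO with limma over all 6180 pairs at an FDR of 10%. Of the 50 SNPs that passed, 24 had a higher alternate minus reference value in Tg and 26 had a lower one. The absolute difference had a median of 0.36 on the log2 scale at these SNPs and ran from 0.11 to 0.64. Over all pairs its median was 0.08. The 5 Tg and the 5 DMSO values did not overlap at 38 of the 50 SNPs, against 109 (1.76%) of all pairs. Without DMSO library 2 the SNPs past the test numbered 26, of which 25 were among the 50. With the edgeR interaction test 53 passed, and they included all 50. With 1 prior variance for all pairs, not robust, in place of a robust one that follows the mean count, limma passed 9, of which 8 were among the 50. Under that setting rs346315, rs2268791, rs2630744, rs7234806, rs34343698, rs10875179, rs6582145, rs11778460 and rs7663027, all described by library here, did not pass (adjusted p from 0.165 to 0.455).

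Allelic effects within each condition were common by comparison. Against 0, 1012 pairs (16.4%) passed in DMSO and 470 (7.61%) passed in Tg at an FDR of 10% (limma). They passed in both conditions at 304 pairs, and 28 of these were among the 50 SNPs. The sign in Tg was opposite to that in DMSO at 4 of the 304, and all 4 passed the test of the difference. That is nearly given in advance, since both effects had passed against 0 in the same libraries. Of 708 pairs with an effect past the test in DMSO alone, the difference between conditions passed at 18. Of 166 with an effect past the test in Tg alone, it passed at 4. Passing in 1 condition and not in the other was thus rarely accompanied by a difference between conditions that passed.

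Which allele moved was asked of each sequence alone, with edgeR on RNA counts of Tg against DMSO at an FDR of 1%. Of 13413 sequences tested, 4.17% were lower in Tg and 2.04% were higher. Among the 100 alleles of the 50 SNPs, 37 were lower and 15 were higher. The alternate allele alone fell at 15 SNPs and the reference allele alone at 10. The reference allele alone rose at 4 SNPs and the alternate allele alone at 7. Both alleles fell at 6 SNPs and both rose at 2. Neither allele passed at 6 SNPs, namely rs2215383, rs17314234, rs6448740, rs7933438, rs11778460 and a SNP on chromosome 7 that has no rs number. The alleles were not chosen independently of this test, since a difference between conditions requires that at least 1 allele moves.

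Most SNPs whose alleles responded to Tg had no detectable change of the allelic effect. Such a change was more frequent among them than elsewhere, but that is largely given in advance. Both tests use the same RNA counts, and the allelic effect cannot change unless an allele moves, so the shares are a description only. At least 1 allele passed the test of change at 545 of the 6180 pairs, and the allelic effect differed at 44 (8.07%) of them. It differed at 6 of the 5635 pairs (0.106%) in which neither allele passed, and at 0.809% of all pairs. Where both alleles fell, it differed at 6 of 174 pairs, and where both rose at 2 of 84. Where only 1 allele fell, it differed at 25 of 189 pairs, and where only 1 rose at 11 of 98. The absolute difference of the allelic effect had a median of 0.07 over pairs in which both alleles fell and 0.03 over pairs in which both rose.

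Activity, defined as more RNA than plasmid with edgeR at an FDR of 1%, was present for 19.8% of sequences in DMSO and 12.8% in Tg. At the 50 SNPs 74 of 100 alleles were active in DMSO and 46 in Tg. Activity passed in DMSO and not in Tg for 30 alleles, and in Tg and not in DMSO for 2. Passing in DMSO alone is no test of a change. Some of the 30, such as the alternate allele of rs9810370, did not pass Tg against DMSO (edgeR adjusted p = 0.374). The 30 alleles were 40.5% of those active in DMSO at these SNPs. Over all pairs the share was 41.4% (1054 of 2548), which is close to the same. Counted by SNP, 16 had an active allele in DMSO and none in Tg, 2 had one in Tg and none in DMSO, and 30 had one in each. The remaining 2, rs7030990 and rs7933438, had no active allele in either. With libraries scaled by total counts only, 30 alleles were active in DMSO and 15 in Tg, and 14 SNPs were active in DMSO and not in Tg. Of all 604 pairs that were active in DMSO with no active allele in Tg, the difference of the allelic effect passed at 16 (2.65%).

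At the 26 SNPs with a smaller effect in Tg, the median absolute log2 effect was 0.66 under DMSO against 0.24 under Tg. The allele that was higher in DMSO was the only one to fall at 16 of them, both alleles fell at 6, and the allele that was lower in DMSO rose at 3. At 1 neither passed. Over all 1810 pairs with a smaller effect in Tg the same counts were 78, 74 and 52, and neither allele passed at 1603. A class defined by a smaller effect in Tg holds, almost by its definition, pairs in which the allele higher in DMSO had the lower change (1752 of the 1810). The caQTL list used here holds only the caQTL SNPs with allelic skew, which the study chose on these libraries. Its T2D list was chosen likewise. The 26 SNPs include 19 of the 29 SNPs of the caQTL list among the 50. Over that whole list, 220 of 389 SNPs had a smaller effect in Tg.

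The largest difference was at rs9434444 (chromosome 1, position 99199207 of hg19), a caQTL SNP, which means that its alleles are associated with chromatin accessibility in human islets. Its allelic effect was 0.78, 0.77, 0.63, 0.79 and 0.89 in DMSO libraries 1 to 5 and 0.06, 0.03, 0.35, 0.09 and 0.10 in Tg libraries 1 to 5. Every DMSO value was above every Tg value, and Tg library 3 stood apart from the other Tg libraries. The difference was -0.64 ± 0.08 (SE, limma adjusted p = 4.28e-09). In log2 RNA/plasmid ratio the G allele fell from 1.16 ± 0.07 to 0.19 ± 0.17 (SD, n = 5 libraries each) and the A allele from 0.38 ± 0.06 to 0.06 ± 0.16. Both were active in DMSO and neither was in Tg.

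At rs78767971 the alternate allele was the only active one in DMSO and no allele was active in Tg. The effect was 0.89, 1.07, 0.66, 0.91 and 0.84 in DMSO and 0.16, 0.42, 0.08, 0.04 and 0.46 in Tg, which do not overlap. The difference was -0.64 ± 0.09 (SE, limma adjusted p = 1.19e-06). The alternate allele fell from 0.73 ± 0.17 to 0.12 ± 0.12 (SD, n = 5 each) in log2 RNA/plasmid ratio. The reference allele was at -0.15 ± 0.08 and -0.11 ± 0.14 and did not pass (edgeR adjusted p = 0.838).

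A reference allele fell alone at rs9810370 and rs346315, both on the caQTL list. For rs9810370 the effect was -0.85, -0.86, -0.73, -0.77 and -0.82 in DMSO and -0.28, -0.23, -0.36, -0.34 and -0.10 in Tg. For rs346315 it was -0.64, -0.98, -0.81, -0.54 and -1.10 in DMSO and -0.33, -0.33, -0.20, -0.38 and -0.09 in Tg. At both SNPs all Tg values were nearer 0 than all DMSO values, with less spread between DMSO libraries at rs9810370. From DMSO to Tg the alternate alleles changed by -0.10 ± 0.06 and -0.17 ± 0.06 (SE, log2), which did not pass (edgeR adjusted p = 0.374 and 0.112). The reference alleles fell by 0.65 and 0.72 on the log2 scale (edgeR adjusted p = 1.58e-14 and 9.5e-15) and stayed active in Tg. The alternate alleles were active in DMSO only.

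rs17236779 (chromosome 5, position 20560208 of hg19) showed the most certain difference, 0.55 ± 0.05 (SE, limma adjusted p = 1.99e-11). Its effect was -0.90, -1.13, -0.94, -0.92 and -0.97 in DMSO and -0.44, -0.52, -0.40, -0.48 and -0.27 in Tg. The SNP kept its direction in every library, with the C allele above the T allele. Both alleles fell, the C allele from 1.97 ± 0.25 to 0.58 ± 0.11 and the T allele from 1.00 ± 0.16 to 0.17 ± 0.16 in log2 RNA/plasmid ratio (SD, n = 5 each). The C allele was active in both conditions and the T allele in DMSO only.

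rs527313 differed from these in that both alleles stayed active in Tg. Its effect was 0.96, 1.18, 0.95, 1.05 and 1.03 in DMSO and 0.69, 0.56, 0.61, 0.62 and 0.36 in Tg (limma adjusted p = 1.36e-05). The alternate allele fell by 0.66 on the log2 scale, its ratio to plasmid going from 1.61 ± 0.16 to 0.95 ± 0.08 (SD, n = 5 libraries each). The reference allele had 0.57 ± 0.09 and 0.37 ± 0.09 and did not pass (edgeR adjusted p = 0.0431).

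rs34343698, rs7234806 and rs7663027 complete the SNPs with a smaller effect in Tg that are described by library. For rs34343698 the effect was 0.66, 0.77, 0.85, 0.65 and 0.76 in DMSO and 0.13, 0.30, 0.43, 0.53 and -0.07 in Tg. Both alleles fell there, and only the alternate allele stayed active. For rs7234806 it was -0.47, -0.61, -0.45, -0.26 and -0.53 in DMSO and -0.19, -0.07, 0.06, -0.21 and 0.00 in Tg. The reference allele, active in DMSO only, fell by 0.32 on the log2 scale. For rs7663027, whose plasmid counts were the lowest of the named SNPs past the test (776.2 and 722.2 on average), it was -0.68, -0.77, -0.62, -0.69 and -0.55 in DMSO and -0.17, 0.05, -0.55, 0.12 and -0.20 in Tg. Its reference allele fell by 0.87 on the log2 scale, and the difference no longer passed without any 1 of the 5 DMSO libraries, without Tg library 2 or 4, with the second sequencing run alone or with 1 prior variance (limma adjusted p = 0.0631 with all libraries and up to 0.478 over all alternatives).

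At the 10 SNPs with a larger effect in Tg, it was rises, not falls, that passed the test of change. The alternate allele alone rose at 5 of them, the reference allele alone at 2 and both at 1, and at 2 neither passed. Over all 2220 pairs with a larger effect in Tg the same counts were 18, 24 and 35, and neither allele passed at 2045. Falls passed there too, of the alternate allele alone at 21, the reference allele alone at 13 and both at 64. Wherever 1 allele alone rose, it was the only active allele in Tg. The T2D list of the study holds 5 of these 10 SNPs and the caQTL list 1. Over the lists, 101 of 213 T2D SNPs and 109 of 389 caQTL SNPs had a larger effect in Tg.

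The clearest gain was at rs11075992 (chromosome 16, position 53820066 of hg19), a T2D SNP that the study assigns to FTO, a gene known for its association with body mass. Its effect was -0.07, 0.08, 0.05, -0.01 and 0.04 in DMSO and 0.74, 0.58, 0.50, 0.46 and 0.76 in Tg. The DMSO values scattered about 0 and every Tg value was above them. The difference was 0.59 ± 0.07 (SE, limma adjusted p = 2.2e-08). By allele, the log2 RNA/plasmid ratio of C was -0.22, -0.10, -0.02, -0.15 and -0.14 in DMSO and 0.49, 0.48, 0.34, 0.35 and 0.51 in Tg. That of T was -0.15, -0.18, -0.07, -0.14 and -0.18 in DMSO and -0.24, -0.10, -0.16, -0.10 and -0.25 in Tg. The C allele rose by 0.57 ± 0.05 on the log2 scale (SE, edgeR adjusted p = 7.17e-13), while T changed by -0.02 ± 0.05 (adjusted p = 0.904).

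In the stretch printed above, the C allele of rs11075992 completes the letters TTGCG, which the T allele lacks. TTGCG is part of a palindrome that C/EBP proteins are known to bind. The letters were chosen after these values were seen, and were searched on both strands (CGCAA on the other) in 98 stretches of 20 to 29 bases around SNPs. They were in 2 (2.04%) of the reference and 4 of the alternate stretches. The alternate allele also completed them at rs10456254 and rs660240, which did not pass the test of the difference, and removed them at rs11169627, which did not pass either. A match of letters is a description and was not tested as a site.

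rs2268791 (chromosome 2, position 202022527 of hg19) gained activity on its reference allele. Its effect was -0.06, -0.30, 0.05, 0.05 and 0.01 in DMSO and -0.96, -0.55, -0.44, -0.47 and -0.48 in Tg. All Tg values were below all DMSO values, and Tg library 1 was the lowest by far. The difference was -0.53 ± 0.09 (SE, limma adjusted p = 0.000105). The G allele rose by 0.56 ± 0.06 on the log2 scale (SE, edgeR adjusted p = 8.26e-11) and was active in Tg only, and the C allele, active in neither condition, changed by 0.03 ± 0.07 (adjusted p = 0.867).

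At rs10875179 (chromosome 1, position 99200198), assigned to SNX7, a sorting nexin, the A allele was already active in DMSO. Its effect was 0.13, -0.09, 0.29, 0.11 and 0.38 in DMSO and 0.29, 0.68, 0.81, 0.86 and 0.38 in Tg, so the groups overlap. The A allele rose by 0.28 ± 0.07 on the log2 scale (SE, edgeR adjusted p = 0.00569). The difference of the effect, 0.44 ± 0.11 (SE, limma adjusted p = 0.0299), did not pass without DMSO library 2, Tg library 3 or Tg library 4, with the second run alone, or with 1 prior variance over all pairs or over active pairs. The G allele changed by -0.15 ± 0.08 (SE, edgeR adjusted p = 0.282). rs10875179 lies near rs9434444 on chromosome 1, where both alleles fell.

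At 14 SNPs the mean effect had opposite signs. The effect passed in both conditions at 4 of them, rs72775940, rs2630744, rs200095282 and rs7030990, in DMSO alone at 9 and in Tg alone at 1. In most cases a mean on 1 side was therefore not told apart from 0. The alternate allele alone fell at 7 of the 14, the reference allele alone fell at 2 and rose at 2, and neither passed at 3. Over all 2150 pairs with opposite signs the same counts were 38, 37 and 16, and neither passed at 1987. The alternate allele alone rose at 23 of those pairs, both fell at 36 and both rose at 13.

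At rs72775940 (chromosome 10, position 11924217 of hg19) the effect was 0.09, 0.07, 0.22, 0.00 and 0.07 in DMSO and -0.67, -0.56, -0.25, -0.35 and -0.70 in Tg. The DMSO mean of 0.09 ± 0.08 (SD, n = 5) was small, and the Tg values were all negative. The difference was -0.59 ± 0.06 (SE, limma adjusted p = 2.81e-10). Both alleles were active in both conditions. The T allele had log2 RNA/plasmid ratios of 0.24, 0.21, 0.11, 0.24 and 0.18 in DMSO and 1.17, 0.80, 0.61, 0.74 and 0.94 in Tg, a rise of 0.67 ± 0.07 on the log2 scale (SE, edgeR adjusted p = 7.87e-10). The C allele changed by 0.07 ± 0.05 (adjusted p = 0.542).

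At rs2630744 the effect was -0.16, -0.22, 0.08, -0.21 and -0.03 in DMSO and 0.28, 0.21, 0.11, 0.35 and 0.63 in Tg, groups that lie side by side without overlap (limma adjusted p = 0.000421). Both alleles were active in both conditions, and the reference allele fell by 0.56 on the log2 scale. At rs12125591 (chromosome 1, position 235794173) the effect was 0.19, 0.37, 0.23, 0.33 and 0.33 in DMSO and -0.06, -0.04, -0.11, -0.22 and -0.15 in Tg. Its alternate allele A fell by 0.56 on the log2 scale. Both alleles were active in DMSO and neither in Tg, though T did not pass the test of change (edgeR adjusted p = 0.154). The effect in Tg did not pass against 0 (limma adjusted p = 0.49).

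rs6582145 had the only partner pair on another background among the 50 SNPs. Its effect was 0.41, 0.42, 0.52, 0.36 and 0.23 in DMSO and -0.25, 0.18, -0.26, -0.15 and -0.05 in Tg, with a fall of the alternate allele by 0.58 on the log2 scale (edgeR adjusted p = 2.28e-07). On the other background the effect was -0.30, 0.20, 0.20, -0.13 and -0.11 in DMSO and -0.28, 0.02, 0.11, 0.09 and 0.74 in Tg, and these overlap. The means there were -0.03 ± 0.22 and 0.14 ± 0.37 (SD, n = 5 each), and the 2 backgrounds were not tested against each other. The difference on the first background, -0.50 ± 0.13 (SE, limma adjusted p = 0.0496), did not pass without DMSO library 1, 2, 3 or 4 or Tg library 1 or 3, with the second run alone, or with 1 prior variance.

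rs11778460 had the widest spread of the named SNPs in Tg, with values of 0.22, 0.01, -0.46, -0.53 and -0.04 against 0.48, 0.30, 0.28, 0.36 and 0.13 in DMSO. Neither allele passed the test of change there (edgeR adjusted p = 0.337 for the reference and 0.0107 for the alternate allele), and the difference (limma adjusted p = 0.0626) did not pass without DMSO library 1, 2, 3 or 4 or Tg library 3 or 4, with the second run alone, or with 1 prior variance over all pairs or over active pairs. No SNP past the test lay within 200 bp of another, among the 23 whose position was at hand.

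Standard culture, in which the medium was not changed, gives an allelic effect from libraries that the comparison of Tg and DMSO did not use. It was measured with the first plasmid batch and with 9 in place of 13 cycles of barcode PCR, so condition and preparation cannot be told apart, and no test was made. Its table numbers 6 libraries while the methods give 5 days of transfection, so some may share a culture. At all 26 SNPs with a smaller effect in Tg, the mean over the 6 library numbers of standard culture had the sign of the DMSO effect and was nearer to the Tg mean than to the DMSO mean. That is read against 84.0% (1520 of 1810) of all pairs with a smaller effect in Tg, and 91.6% (567 of 619) of those whose effect passed in DMSO, and nothing particular to the 26 SNPs is read from it. The median absolute effect of these SNPs was 0.25 in standard culture, against 0.66 in DMSO and 0.24 in Tg. At rs9810370 it was -0.25 ± 0.16 (SD, n = 6), and at rs17236779 -0.42 ± 0.20. Of the 10 SNPs with a larger effect in Tg, 5 were nearer to Tg and 5 to DMSO, and of the 14 with opposite signs 7 were nearer to Tg. The effect at rs11075992 was 0.04 ± 0.07 and that at rs2268791 was 0.04 ± 0.04 (SD, n = 6 each), both close to DMSO. Over all 6180 pairs standard culture was nearer to Tg at 46.0%, and over the caQTL list at 65.8%. Effects in standard culture were the smallest over all pairs, with a median absolute value of 0.04 against 0.08 in DMSO and 0.09 in Tg.

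The SNPs with allelic skew that the study lists are no independent evidence, since it chose them on these libraries. Of 213 T2D SNPs tested, the effect differed at 9, and of 389 caQTL SNPs at 29. The other 12 SNPs past the test are on neither list. The share over all pairs, 0.809%, is not a like background. An effect passed in neither condition at 5002 of all pairs, none of which differed, but at only 62 T2D and 83 caQTL SNPs. Among all pairs the effect differed at 9.21% of those with an effect in both conditions. It differed at 2.54% of those with one in DMSO alone and 2.41% in Tg alone. The lists were not tested against these shares. The median absolute difference was 0.09 over the T2D list, 0.12 over the caQTL list and 0.08 over all pairs. Among T2D SNPs alleles that rose in Tg outnumbered those that fell, 113 against 30 of 426, and among caQTL SNPs the reverse held, 13 against 168 of 778. Of the 78 T2D SNPs with a smaller effect in Tg, whether past the test or not, the allele that was lower in DMSO rose at 28. Of the 220 such caQTL SNPs, the allele that was higher in DMSO alone fell at 45 and both fell at 33.

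A further 7 SNPs were named because the study examined them in DMSO and Tg, and at none of them did the difference pass at this depth. At rs17748864, assigned to PEX5L, the effect was 3.61, 3.27, 3.25, 3.33 and 3.40 in DMSO and 3.53, 3.43, 3.57, 3.48 and 3.40 in Tg, with overlap throughout. The difference was 0.11 ± 0.08 (SE, limma adjusted p = 0.828). The T allele carried all of its activity, at a log2 RNA/plasmid ratio of 3.14 ± 0.10 and 3.31 ± 0.05 (SD, n = 5 each), and the C allele was active in neither condition. For rs4630391, assigned to RNF6, a ubiquitin ligase, the effect lay between -0.52 and -0.49 in DMSO and between -0.50 and -0.44 in Tg. That is the least spread of the named SNPs, and the difference of 0.04 ± 0.02 (SE) had an adjusted p of 0.646 (limma).

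At LARP6, rs113350503 and rs11630895 had differences of -0.01 ± 0.06 and 0.10 ± 0.08 (SE, limma adjusted p = 0.977 and 0.828). Both alleles of rs113350503 rose, by 0.26 for A and 0.24 for G on the log2 scale, and its allelic effect of 0.22 ± 0.05 under DMSO compares with 0.21 ± 0.12 under Tg (SD, n = 5 libraries each). The same was seen at rs947735, whose alleles rose by 0.29 and 0.30 on the log2 scale with a difference of 0.00 ± 0.08 (SE, adjusted p = 0.999). For rs947734, which lies nearby on chromosome 6, the difference was 0.10 ± 0.09 (SE, adjusted p = 0.888). At rs12189774, assigned to VEGFA, the effect of -0.16 ± 0.04 under DMSO compares with -0.19 ± 0.05 under Tg (SD, n = 5 libraries each), with a difference of -0.03 ± 0.07 (SE, adjusted p = 0.959). The A allele there fell by 0.23 on the log2 scale and was active in DMSO only. The G allele, with a change of -0.20 ± 0.06 (SE, edgeR adjusted p = 0.0138), stayed active. The study sets the allelic effect of rs12189774 in Tg against baseline culture, which is another comparison and was not tested here. Its effect in standard culture was -0.02 ± 0.04 (SD, n = 6), from the other preparation.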

How the data were processed

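The authors counted barcodes in GFP mRNA and plasmid and deposited, for each sequence and library, raw counts that are sums over its barcodes; barcodes of more than 1 sequence had been discarded. DESeq2 is named, with no version, in the submitters' processing notes, and the counting program was not given in the sources used here. Reads carry no molecular identifiers, so precision rests on the spread between libraries. Counts of both sequencing runs were summed by library (R 4.3.3, Python 3.11.15).

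Allelic differences of log2(count + 1) were compared between 5 Tg and 5 DMSO libraries with limma 3.58.1, with a robust prior variance that follows the mean count, two-sided, Benjamini-Hochberg over 6180 pairs. Effects in 1 condition were tested against 0 likewise. Sequences with at least 10 plasmid counts on average were tested with edgeR 4.0.16 (quasi-likelihood, TMM). Ratios by library use TMM over plasmid, DMSO and Tg. DESeq2 1.42.0 was an alternative. The limma and edgeR fits were tested on simulated data. The study describes its DMSO and Tg replicates as paired, but libraries of the same number did not deviate together (correlations of deviations from -0.04 to -0.01), so no block was used and the pairing was not recovered.

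Named are the 15 largest differences without overlap, the 3 largest gains and reversals, SNPs with a partner pair, and SNPs that the study shows. The members and lists were chosen with earlier results of these data known. Positions, loci and stretches of sequence are from the study's tables. rs6917676 was not analysed here.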

Additional observations from a re-analysis of the deposited data

Results flagged for a closer look

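Among 51 groups of 5 libraries checked, 2 held a library that stood apart (the gap to its neighbour over the range was above 0.71), where chance gives about 1 in 20. The allelic effect of rs9434444 in Tg library 3 was 0.354, against 0.03 to 0.101 in the other Tg libraries. That of rs2268791 in Tg library 1 was -0.963, against -0.547 to -0.440. The allelic effect differed between DMSO and Tg at 50 SNPs by the limma test of the difference. At 4 of them it passed against 0 in both conditions with opposite signs, with Tg minus DMSO differences of -0.594 for rs72775940, 0.424 for rs2630744, -0.315 for rs200095282 and -0.328 for rs7030990.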

How the results depend on the processing

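Of the 50 SNPs, every one tested kept the sign of its difference under all alternatives, and the 17 named among them kept their call in 337 of 374 combinations of SNP and alternative. The SNPs past the test numbered 9 with 1 prior variance for all pairs, 86 over pairs with an active allele only and 77 with DESeq2's interaction. They numbered 67 over active pairs with 1 prior variance, an alternative chosen after seeing the data, and 26 to 62 without 1 library. With the replicate number as a block they numbered 60 and included all 50. The setting with 1 prior variance also drops the robust fit, so the 2 changes cannot be told apart. Under it 9 of the 17 named SNPs lost their call, and its prior had 3.20 degrees of freedom against 59.2. Scaling by total counts only, which puts the median log2 RNA/plasmid ratio of all sequences at -0.74 in DMSO and -0.81 in Tg, left 30 alleles active in DMSO and 15 in Tg. The allelic effects passed at 614 pairs in DMSO, 178 in Tg and 134 in both with 1 prior variance, and at 808 to 889, 369 to 426 and 256 to 291 without 1 library. Alleles changed by Tg were found at 42 to 45 of the SNPs without 1 library, with 36 to 38 alleles lower and 13 to 16 higher, and 72 to 74 alleles were active in DMSO, 44 to 47 in Tg, with 15 to 18 SNPs active in DMSO only. For SNPs whose difference did not pass, the sign turned at rs113350503 (0.00408 with run 2 only) and at rs947735 (-0.0247 with run 1 only), and without 1 library these ranged from -0.0616 to 0.0180 and from -0.0516 to 0.0505. The SE of the difference was 0.0188 at rs4630391, with the highest counts of the named SNPs, and 0.139 at rs7663027, with few.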
